A study of Spinacia oleracea with 24 samples.

Results

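The genes described here are those of abscisic acid signalling in spinach leaves, together with the whole family of type 2C protein phosphatases (PP2Cs). They were chosen by protein name. The deposited table gives most genes the name of their closest Swiss-Prot protein, and a gene was taken where that name held protein phosphatase 2C, abscisic acid receptor, abscisic acid-insensitive, or the kinase names SAPK or SRK2. Of 84 genes with such a name, 69 reached 1 FPKM (fragments per kilobase of transcript, scaled to the size of the library) in at least 3 of 24 libraries, among 18110 genes of the 25494 in the table that did so. The 69 members were 7 of 12 receptors, 6 of 8 clade A PP2Cs, 7 of 7 SnRK2 kinases, 3 of 4 ABSCISIC ACID-INSENSITIVE (ABI) factors and 46 of 53 other PP2Cs. The 15 genes that did not pass never exceeded 2.29 FPKM, and 5 of them were at 0 in every library. Gene names are those of Arabidopsis or rice proteins matched by similarity, and the species of the name is given with each.

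Leaves came from plants of the variety Space that were 48 days old and had grown in turface, a soil-free medium, with 8 h of light a day. LN plants were fed 50 ppm nitrogen and HN plants 200 ppm. Within each supply leaves were taken at T1 (end of the dark period), T2 (middle of the light period), T3 (end of the light period) and T4 (middle of the dark period) of 1 day, from 3 separate plants a group. Each p-value rests on the spread between plants within groups, estimated once per gene over all 8 groups and not from the compared plants alone. All plants shared the genotype Space, and the labels name no hormone or drought treatment.

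Abscisic acid is the plant hormone best known for closing stomata and raising desiccation tolerance when water is short. Receptors of the PYR/PYL family bind the hormone and then block the clade A PP2Cs, phosphatases that otherwise keep SnRK2 kinases switched off. The freed kinases phosphorylate bZIP transcription factors of the ABF and ABI5 type and ion channels of guard cells. In Arabidopsis, transcripts of most clade A PP2Cs rise after hormone treatment, and PP2Cs of other clades act in separate pathways such as mitogen-activated kinase signalling, receptor kinase signalling and photosynthesis.

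The libraries held 18369094 to 25252705 fragments each. LN replicate 2 at T1, LN replicate 3 at T3 and LN replicate 3 at T4 lay farthest from the other libraries of their groups. The calls of named members lost without them, and some of the counts that change, are given below. The leaf label was checked against 24 mesophyll markers, which summed to between 15498 and 113180 FPKM over the libraries, and 4 root markers, which never summed to more than 0.705 FPKM. Mean levels of the members over the 24 libraries ran between 0.353 and 139.6 FPKM with a median of 17.5 FPKM, against a median of 10.25 FPKM for all tested genes. All tests were limma fits on log2(FPKM + 1) over the 18110 genes, with Benjamini-Hochberg adjustment over all of them and a threshold of 0.05. Log2 differences are on that scale, whose pseudocount of 1 shrinks differences at low FPKM. In whole leaves, fewer cells of a type and less RNA per cell cannot be told apart.

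Time of day moved a large part of the group. In LN leaves 35 of 69 members (50.7%) changed over the 4 times, against 28.7% of all tested genes. In HN leaves 42 of 69 (60.9%) changed, against 38.9% of all tested genes. In both supplies 27 members changed, against 20.6% of all tested genes, and 22 of the 27 had their highest mean at the same time in LN and HN (81.5%, against 69.8% of all genes called in both). The end of the dark period was the commonest peak. It was the peak of 17 of the 35 in LN leaves (48.6%, against 39.8% of all genes that changed) and of 19 of the 42 in HN leaves (45.2%, against 34.9%).

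From the end of the dark period to the end of the light period more members fell than rose. In LN leaves 28 members changed between T3 and T1 (26% of all tested genes did): 9 were higher at T3 (12.2% of all tested genes) and 19 lower (13.8%). In HN leaves 36 changed (32.7% of all tested genes did): 12 were higher at T3 (15.7%) and 24 lower (17.1%). The median difference of the members was -0.14 in LN leaves and -0.25 in HN leaves, and over all tested genes it was -0.0025 in LN and 0.011 in HN.

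Between the middle of the light and the middle of the dark period 10 members changed in LN leaves (7.66% of all tested genes did), 5 higher at T2 (4.32% of all tested genes) and 5 lower (3.34%). In HN leaves 22 changed (23.7% of all tested genes did), 14 higher at T2 (12.5%) and 8 lower (11.1%). These splits depend on how libraries are scaled. Scaling every library to a common sum of FPKM lowered the median of all genes by 0.21 (log2) in LN and 0.34 in HN, and the split became 3 higher and 11 lower in LN and 5 higher and 20 lower in HN. Without LN replicate 2 at T2 the LN count was 5, and without HN replicate 3 at T4 the HN count was 13.

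Fewer members were called for nitrogen supply, and the count at a single time was highest at the end of the dark period. At T1, 15 of 69 differed between LN and HN (9.97% of all tested genes did), 10 higher in LN (5.1% of all tested genes) and 5 lower (4.86%). With a common sum of FPKM the split was 11 higher and 2 lower. With the replicate number as a block among the T1 libraries, whose same-numbered samples deviated together, 7 of the 15 passed. Without LN replicate 3 at T1 the count was 6, without HN replicate 1 at T1 7, and without HN replicate 3 at T1 8. When the T1 libraries alone were fitted, 4 of the 15 passed. They were PYL4 Spo00371, P2C78 Spo09215, P2C57 Spo02513 and P2C02 Spo04196.

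At T2 and T3 limma called 0 members (0.00552% of all tested genes were called at each time), with 5 at an unadjusted p under 0.05 at either time, and voom also called 0. At T4 it called 1 member (0.37% of all tested genes), 16 having an unadjusted p under 0.05. Averaged over the 4 times 13 members differed (16.5% of all tested genes did), 7 higher in LN (7.92%) and 6 lower (8.62%). The interaction test, which asks whether the nitrogen difference itself changed over the day, called 0 members (0.0828% of all tested genes). It gave 13 at an unadjusted p under 0.05, and voom called 0. Fits that left out 1 library called 0 to 4 members, and the 4 came without LN replicate 1 at T1. That library is not among the 3 farthest and was singled out after its low values were seen. Without the 3 farthest libraries the interaction test called 3. A difference called at T1 and not at other times is therefore not shown to differ between times.

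**Figure D1:**
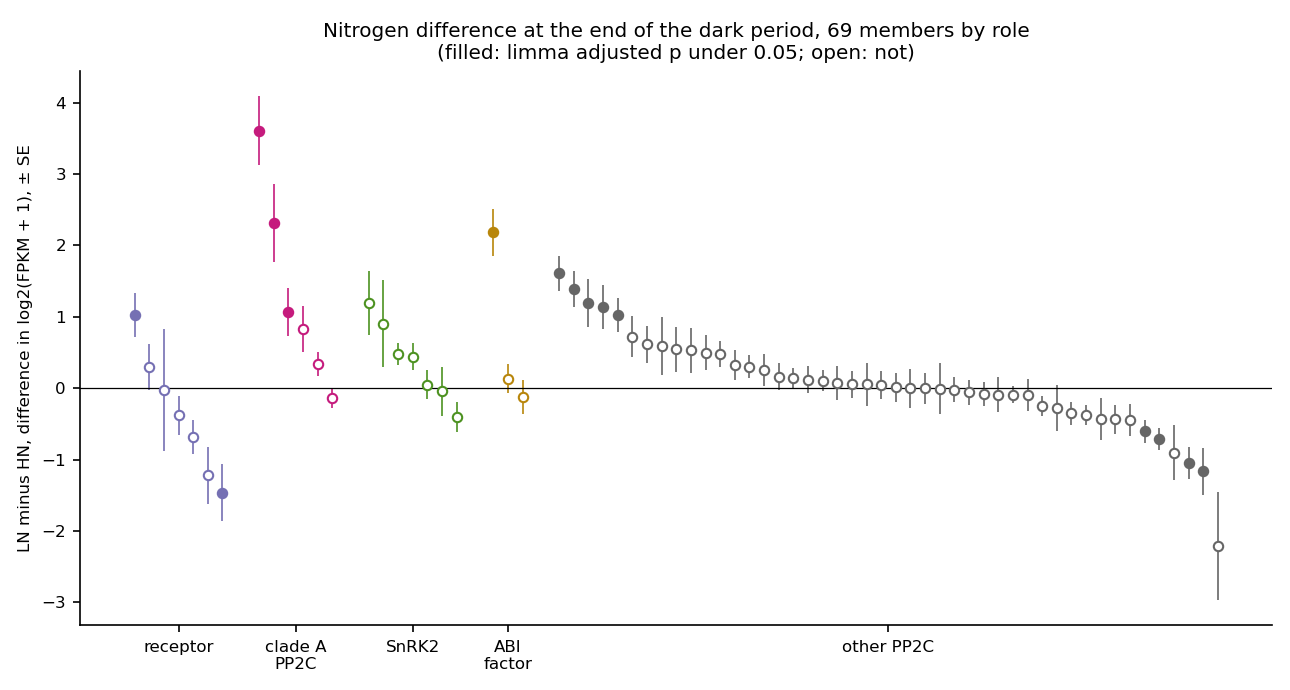
Difference between LN and HN leaves at the end of the dark period for the 69 members, as LN minus HN in log2(FPKM + 1) with its standard error (n = 3 plants a group). Members are grouped by role and ordered by size, and filled points passed the limma test, as did 9.97% of all tested genes. Among clade A PP2Cs 3 of 6 and among ABI factors 1 of 3 passed, all above 0, up to 3.61. Of the receptors 2 of 7 passed, in opposite directions, and of the SnRK2 kinases 0 of 7.

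The receptors come first in the pathway. Over the day 3 of 7 changed in LN leaves (28.7% of all tested genes did) and 4 of 7 in HN leaves (38.9%), and the LN changes all had their peak at the end of the light period. The gene named after rice PYL5 (Spo18840, chromosome 2, 47821218 to 47824154) was called over the day in both supplies. In LN leaves it stood at 10.02, 20.4 and 16.3 FPKM at T1, 6.33, 10.7 and 14.5 at T2, 52.7, 85.6 and 90.2 at T3, and 50.6, 40.8 and 30.6 at T4. In HN leaves it stood at 6.62, 10.035 and 4.70 FPKM at T1, 7.50, 7.99 and 13.7 at T2, 83.1, 85.8 and 67.6 at T3, and 28.5, 33.7 and 32.3 at T4. Every T3 and T4 library was above every T1 and T2 library. At T3 it was 2.23 ± 0.31 higher than at T1 in LN leaves (log2 ± SE, adjusted p = 3.2e-05) and 3.34 ± 0.31 higher in HN leaves (adjusted p = 2.5e-07), a mean range over the day of 7.24-fold in LN and 11.1-fold in HN. The T2 minus T4 difference was -1.89 ± 0.31 in LN (adjusted p = 0.00094) and -1.64 ± 0.31 in HN (adjusted p = 0.001).

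PYL4 (Arabidopsis name, Spo00371, chromosome 1, 25418513 to 25419286) rose through the light period in LN leaves. It was at 20.5, 41.6 and 22.9 FPKM at T3 against 6.11, 5.73 and 5.11 FPKM at T1, with no overlap, a log2 difference of 2.07 ± 0.41 (adjusted p = 0.00089). Its HN libraries were at 26.4, 25.02 and 20.8 FPKM at T3 against 15.8, 22.4 and 14.5 FPKM at T1, and the difference of 0.45 did not pass (adjusted p = 0.42). PYL1 (Arabidopsis name, Spo23391) also rose in LN leaves, to 33.1, 31.1 and 21.1 FPKM at T3 against 9.66, 9.44 and 14.8 at T1 (1.26 ± 0.39, adjusted p = 0.023). That call was lost without LN replicate 1 or 2 at T1 or at T3. In HN leaves PYL1 was at 16.4, 18.3 and 12.8 FPKM at T3 against 43.3, 21.5 and 21.3 at T1 (-0.76, adjusted p = 0.15).

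PYL9 (Arabidopsis name, Spo19488) was the most abundant member of all at a mean of 139.6 FPKM. In LN leaves it ran between 94.1 and 173 FPKM over 12 libraries, and the time test did not pass (adjusted p = 0.87). Its HN libraries were at 148, 112 and 82.8 FPKM at T3 against 183, 182 and 203 FPKM at T1 (-0.76 ± 0.27, adjusted p = 0.034). They were at 226, 204 and 123 FPKM at T2 against 126, 80.7 and 77.7 FPKM at T4 (0.94 ± 0.27, adjusted p = 0.016). The T3 call was lost without any 1 HN library of T1 and without HN replicate 2 or 3 at T3. The T2 call was lost with a common sum of FPKM and without HN replicate 1 or 2 at T2 or HN replicate 2 or 3 at T4. PYL2 (Arabidopsis name, Spo14627) was the weakest receptor at a mean of 1.93 FPKM. In HN leaves it was higher at T2 than at T4 by 1.09 ± 0.32 (adjusted p = 0.018), a call lost without HN replicate 2 at T2, without HN replicate 3 at T4 or with a common sum of FPKM.

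For nitrogen, PYL8 (Arabidopsis name, Spo16049, chromosome 3, 4541429 to 4545115) was the receptor that differed over the day as a whole. Its 12 LN libraries ran between 16.7 and 33.9 FPKM with a median of 22.8 FPKM, and its 12 HN libraries between 21.4 and 56.7 FPKM with a median of 36.9 FPKM. The ranges overlapped, and the mean difference was -0.60 ± 0.12 (adjusted p = 0.0033), which held in every fit that left out 1 library. In HN leaves PYL8 was lowest at T3, at 21.4, 25.3 and 22.3 FPKM against 32.5, 48.3 and 38.2 FPKM at T1 (-0.75 ± 0.24, adjusted p = 0.02), a call lost without HN replicate 2 at T1 or HN replicate 1 or 3 at T3. At T1 PYL4 Spo00371 was lower in LN leaves, at 6.11, 5.73 and 5.11 FPKM against 15.8, 22.4 and 14.5 FPKM in HN (-1.46 ± 0.41, adjusted p = 0.028). PYL5 Spo18840 went the other way at 10.02, 20.4 and 16.3 FPKM in LN against 6.62, 10.035 and 4.70 FPKM in HN (1.03 ± 0.31, adjusted p = 0.041). The PYL4 call was lost with a common sum of FPKM, without LN replicate 1 or 3 at T1 and without any 1 HN library of T1. The PYL5 call was lost with the block among T1 libraries and in 7 of 24 fits that left out a library, among them those without LN replicate 2 or 3 or HN replicate 1 or 3 at T1. The other gene named PYL4 (Spo07460, mean 5.70 FPKM) passed no test here and had 2 LN libraries at 0.

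**Figure D2:**
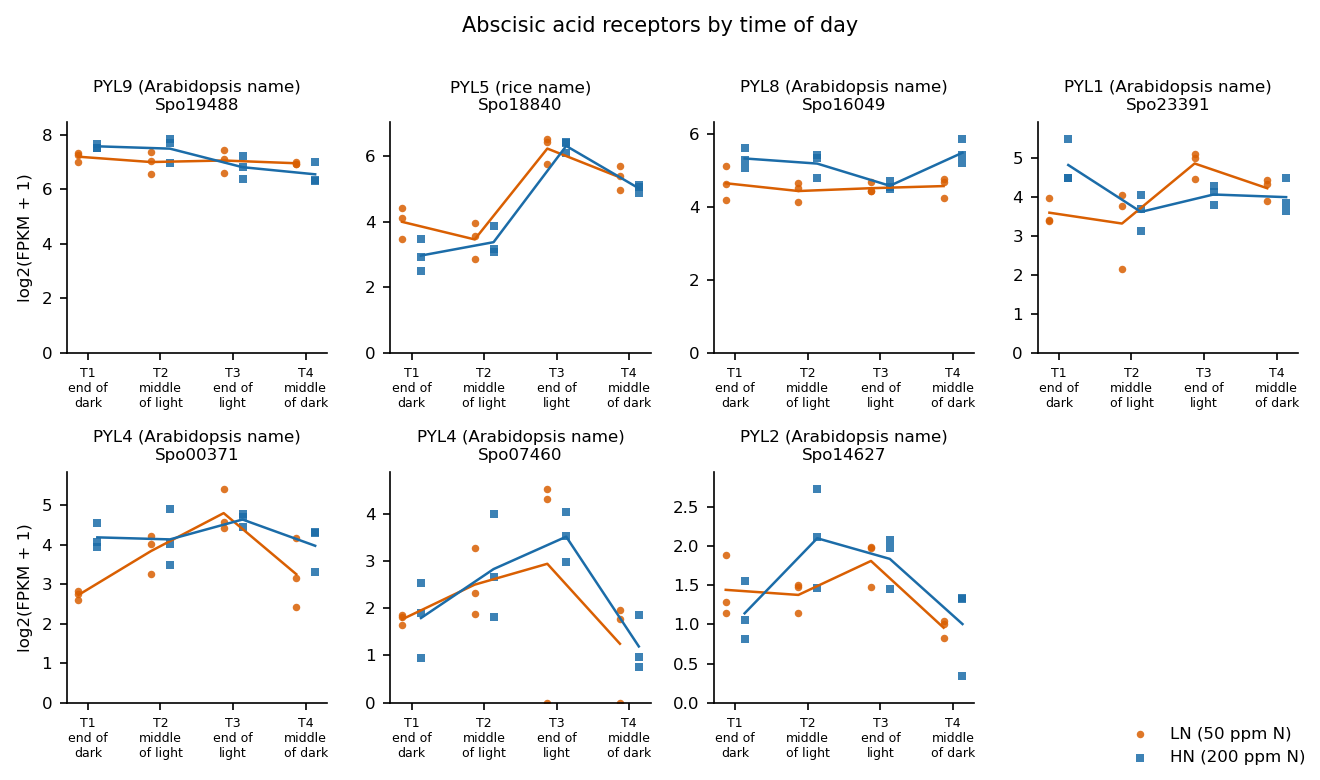
Level of the 7 receptors as log2(FPKM + 1) at the 4 sampling times, LN as orange circles left of HN as blue squares, 1 point a library (3 a group) with lines through the group means. PYL5 Spo18840 stands high at T3 and T4 in both supplies, and PYL8 Spo16049 stands lower in LN than in HN at T1 and T4.

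The clade A PP2Cs are the phosphatases that the receptors block. In LN leaves 6 of 6 changed over the day (28.7% of all tested genes did), and 6 of 6 were lower at the end of the light period than at the end of the dark period (13.8%). In HN leaves 4 of 6 changed (38.9%), and 3 of 6 were lower at T3 than at T1 (17.1%). The call of P2C51 over the day was lost in 9 of 24 fits that left out a library in HN leaves and in 2 of 24 in LN leaves. Their median T3 minus T1 difference was -1.76 in LN leaves and -0.77 in HN leaves, against -0.0025 and 0.011 for all tested genes. Without the 3 libraries that lay farthest from their groups, 4 of 6 passed in LN leaves and 4 of 6 in HN leaves. Without LN replicate 1 at T1, 6 of 6 passed in LN and 5 of 6 in HN. With a common sum of FPKM, 6 of 6 passed in LN and 2 of 6 in HN. When only the T1 and T3 libraries of a supply were fitted, the LN calls of P2C37, P2C16, P2C51 and P2C53 were lost. Those of P2C06 and P2C78 held, as did the HN calls. The LN call of P2C51 between T3 and T1 was also lost in 3 of 24 fits that left out a library.

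P2C06 (rice name, Spo04790) was called over the day in both supplies. In LN leaves it was at 184, 442 and 272 FPKM at T1, 22.0, 31.3 and 33.5 at T2, 18.2, 22.6 and 19.3 at T3, and 181, 112 and 59.5 at T4. The HN values were 175, 142 and 157 FPKM at T1, 39.1, 22.1 and 22.3 at T2, 15.2, 15.6 and 17.1 at T3, and 87.2, 65.01 and 80.9 at T4. All 12 dark-period libraries were above all 12 light-period libraries. The T3 minus T1 difference was -3.75 ± 0.33 in LN (adjusted p = 1.3e-07) and -3.23 ± 0.33 in HN (adjusted p = 6.4e-07). The T2 minus T4 difference was -1.87 ± 0.33 in LN (adjusted p = 0.0016) and -1.49 ± 0.33 in HN (adjusted p = 0.003).

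P2C78 (Arabidopsis name, Spo09215, chromosome 6, 14640572 to 14643234) belongs to the HAI group of clade A, which in Arabidopsis is strongly induced by the hormone. At T1 it stood at 9.04, 46.5 and 50.9 FPKM in LN leaves, against 1.13, 2.04 and 1.11 FPKM in HN leaves. Every LN plant was above every HN plant, and LN replicate 1 was far below the other LN plants. The difference of 3.61 ± 0.48 (adjusted p = 0.00034) was the widest nitrogen difference among the members at T1 and held in all 24 fits that left out 1 library. It was 4.38 without LN replicate 1 and 3.25 without the 3 farthest libraries. At T3 the gene was at 0.52, 0.723 and 0 FPKM in LN leaves and 0.145, 0.196 and 0.135 FPKM in HN leaves. The fall to T3 in LN was -4.40 ± 0.48 (adjusted p = 1.9e-06), and in HN the difference of -1.05 did not pass (adjusted p = 0.1). The gene reached 1 FPKM in 9 of 24 libraries, 6 of them at T1 and the other 3 at T4, so it entered the tested set through the times at which it is high. Its interaction test gave an unadjusted p of 0.00013 and an adjusted p of 0.071, which did not pass. The adjusted p was 0.0015 without LN replicate 1 at T1, a library singled out after its low values were seen.

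P2C51 (rice name, Spo16056, chromosome 3, 4699006 to 4702893) also had its lowest LN plant at T1 in replicate 1. It stood at 23.7, 91.5 and 90.0 FPKM in LN leaves against 10.4, 10.7 and 11.7 FPKM in HN leaves. The groups did not overlap, and the difference was 2.31 ± 0.55 (adjusted p = 0.014), or 2.94 without LN replicate 1. It was lost without LN replicate 3 or without HN replicate 1 at T1, and when the T1 libraries alone were fitted. Averaged over the day P2C51 was 0.96 ± 0.27 higher in LN (adjusted p = 0.023). In HN leaves its peak was at T2, with 29.4, 12.3 and 16.4 FPKM against 6.30, 2.30 and 4.01 FPKM at T4 (1.96 ± 0.55, adjusted p = 0.015), a call lost without HN replicate 1 at T2 or HN replicate 2 at T4.

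P2C37 (Arabidopsis name, Spo15144, chromosome 1, 27938172 to 27940840), the phosphatase PP2CA of Arabidopsis guard cell signalling, was the most abundant phosphatase of the clade at a mean of 128 FPKM. At T1 it stood at 118, 385 and 330 FPKM in LN leaves against 110, 157 and 93.6 FPKM in HN leaves, and LN replicate 1 lay within the HN range. The difference of 1.06 ± 0.33 passed narrowly (adjusted p = 0.048) and was lost in 19 of 24 fits that left out 1 library, in voom and with the block among T1 libraries. In LN leaves P2C37 was at 89.3, 82.6 and 80.8 FPKM at T3, all below the T1 libraries (-1.54 ± 0.33, adjusted p = 0.0021). For P2C06 the T1 difference of 0.83 ± 0.33 did not pass (adjusted p = 0.11), and without LN replicate 1 it was 1.13 and passed (adjusted p = 0.045).

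The remaining clade A genes moved within narrow ranges. P2C16 (Arabidopsis name, Spo06241), known there as HAB1, was at 32.2, 36.6 and 32.6 FPKM at T3 against 43.0, 52.6 and 48.5 FPKM at T1 in LN leaves (-0.49 ± 0.14, adjusted p = 0.012), a call lost without LN replicate 2 at T1. HN leaves had 34.0, 34.1 and 43.9 FPKM at T3 against 49.9, 51.4 and 57.4 FPKM at T1 (-0.50 ± 0.14, adjusted p = 0.0083), a call lost with a common sum of FPKM. P2C53 (rice name, Spo06240) fell to 14.5, 18.4 and 12.97 FPKM at T3 against 22.0, 26.2 and 29.5 FPKM at T1 in LN (-0.73 ± 0.17, adjusted p = 0.0036). In HN it was at 10.9, 10.8 and 10.5 FPKM at T3 against 18.3, 21.6 and 20.5 FPKM at T1 (-0.85 ± 0.17, adjusted p = 0.0008). Neither passed for nitrogen at T1 (-0.14, adjusted p = 0.55, for P2C16 and 0.34, adjusted p = 0.21, for P2C53). The genes lie 3114 bases apart on the same strand of scaffold SpoScf_02024, so reads shared between near copies could have been split between them.

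**Figure D3:**
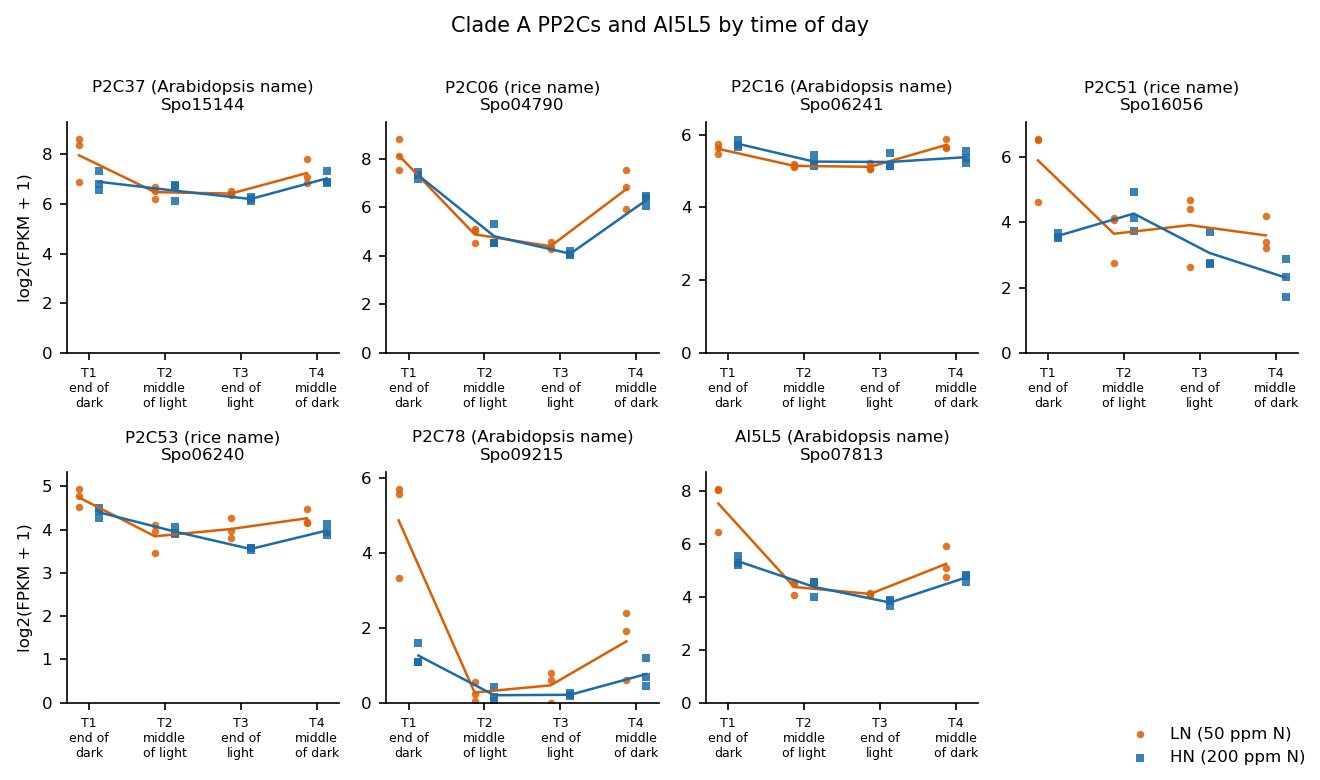
Level of the 6 clade A PP2Cs and of the factor AI5L5 as log2(FPKM + 1) at the 4 sampling times, LN as orange circles left of HN as blue squares, 1 point a library (3 a group) with lines through the group means. P2C78, P2C51 and AI5L5 stand highest in LN at T1, where LN replicate 1 is the lowest LN point of each, and P2C06 is high at T1 and T4 in both supplies.

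Summed over the clade, FPKM at T1 was 400, 1044 and 821 in LN libraries against 365, 385 and 341 in HN libraries. The LN libraries were all higher, replicate 1 only slightly. Summed receptor FPKM at T1 was 207, 199 and 216 in LN libraries against 288, 288 and 285 in HN libraries, with every LN library lower. The ratio of clade A to receptor FPKM per library was 1.93, 5.24 and 3.795 at T1 in LN leaves, against 1.27, 1.34 and 1.2 in HN leaves. At T3 it was 0.627, 0.480 and 0.590 in LN leaves and 0.452, 0.493 and 0.710 in HN leaves, so these groups overlapped. The ratio was above 1 in every dark-period library and below 1 in 11 of 12 light-period libraries, the exception being LN replicate 2 at T2 at 1.04. The sums are dominated by P2C37 and P2C06 on the phosphatase side and by PYL9 on the receptor side, and no test was made of them.

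**Figure D4:**
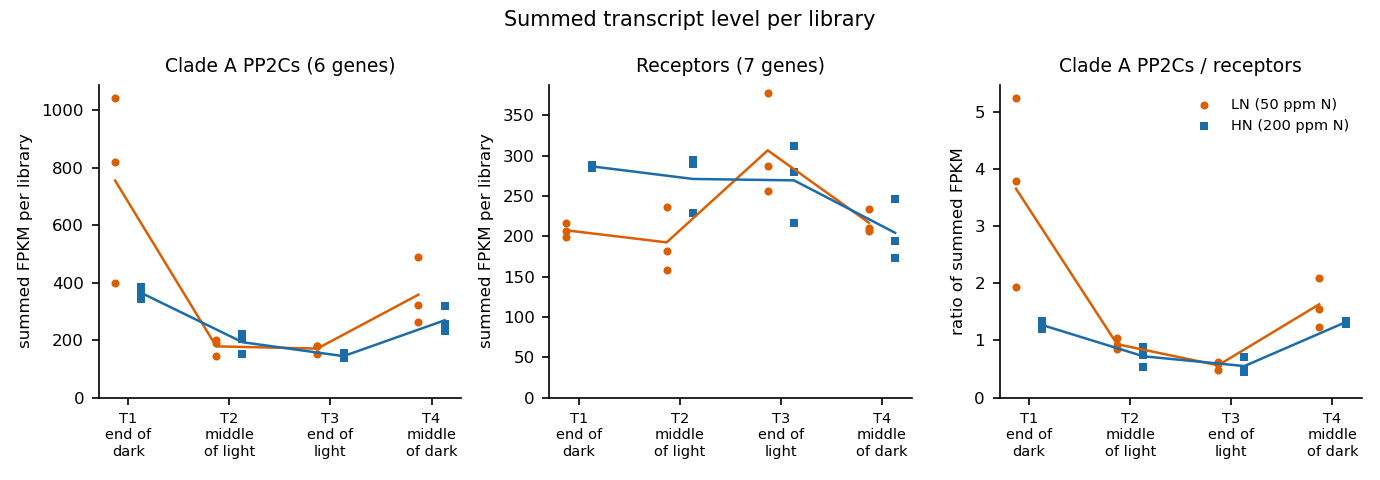
Summed FPKM per library of the 6 clade A PP2Cs (left) and of the 7 receptors (middle), and the ratio of the phosphatase sum to the receptor sum (right), at the 4 sampling times, LN as orange circles left of HN as blue squares, 3 libraries a group with lines through the means. At T1 the LN libraries reach up to 1044 FPKM for the phosphatases and lie between 199 and 216 FPKM for the receptors, where HN libraries lie between 285 and 288 FPKM.

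The markers of cell types were read beside these differences. The 3 guard cell markers summed to between 17.2 and 28.9 FPKM in LN libraries at T1 and between 14.95 and 15.8 FPKM in HN libraries. At T4 the order was reversed, with sums between 10.9 and 16.5 FPKM in LN and between 18.7 and 31.2 FPKM in HN. For nitrogen 0 of 3 were called at T1 (9.97% of all tested genes) and 0 of 3 at T4 (0.37%), and none was at 0 in every library. The 24 mesophyll markers summed to between 34395 and 59934 FPKM in LN and between 56242 and 80971 FPKM in HN at T1. There 1 of 24 was called, lower in LN (4.86% of all tested genes were). The 5 tested phloem markers of 7 matched summed to between 43.0 and 60.3 FPKM in LN and between 55.3 and 83.1 FPKM in HN, with 0 called. Averaged over the day 5 of 24 mesophyll markers (20.8%) were called, against 16.5% of all tested genes. All 5 were lower in LN (8.62% of all tested genes were), with a median of -0.53 over the 24 and 4 of 24 above 0. At T4 2 of 24 were called (0.37% of all tested genes), both lower, with a median of -0.997. The sum of the 24 at T4 was between 15498 and 45842 FPKM in LN and between 44127 and 57971 FPKM in HN. Between T2 and T4, 12 of 24 were higher at T2 in LN leaves (4.32% of all tested genes, marker median 1.502). In HN leaves 8 of 24 were (12.5% of all tested genes, marker median 0.73), with 0 lower in either supply. The part of the markers in the nitrogen and time differences was not tested.

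The SnRK2 kinases changed in part with time of day. Over the day 3 of 7 changed in LN (28.7% of all tested genes did) and 4 of 7 in HN (38.9%). The LN call of SAPK1 was lost in 16 of 24 fits that left out a library and its HN call without HN replicate 3 at T1. For nitrogen limma called 0 of 7 on average over the day (16.5% of all tested genes were called), with 1 at an unadjusted p under 0.05. At T1 it called 0 of 7 (9.97% of all tested genes), with 3 at an unadjusted p under 0.05. SAPK10 (rice name, Spo08217), one of the kinases that the hormone activates in rice, had its peak at T3 in both supplies. It was at 46.4, 61.0 and 62.9 FPKM at T3 against 26.0, 24.4 and 26.4 FPKM at T1 in LN leaves (1.11 ± 0.16, adjusted p = 4.4e-05). The HN plants were at 61.5, 57.5 and 46.2 FPKM at T3 against 15.9, 20.7 and 17.8 FPKM at T1 (1.55 ± 0.16, adjusted p = 7.4e-07). The T1 libraries of LN were all above those of HN, and that difference of 0.48 ± 0.16 missed the threshold (adjusted p = 0.059). It passed with a common sum of FPKM (adjusted p = 0.036), without LN replicate 1 at T3 and without HN replicate 1 at T2. The T2 minus T4 difference in HN leaves, 0.50 (adjusted p = 0.028), was lost with a common sum of FPKM, without HN replicate 1 at T2 and without any 1 HN library of T4.

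SAPK2 (rice name, Spo20632) ran opposite to SAPK10. In LN leaves it was at 27.1, 47.1 and 12.98 FPKM at T3 against 32.7, 73.6 and 58.0 FPKM at T1, and the groups overlapped (-0.99 ± 0.34, adjusted p = 0.038). The LN call was lost without LN replicate 2 or 3 at T1 and without LN replicate 1 or 3 at T3. Its HN libraries were at 15.3, 14.6 and 12.7 FPKM at T3 against 51.3, 64.6 and 46.2 FPKM at T1 (-1.85 ± 0.34, adjusted p = 0.00041). Without the 3 farthest libraries SAPK2 was 1.28 higher in LN than in HN at T3 (adjusted p = 0.043), a difference not called with all libraries. SAPK1 (rice name, Spo23775) is, like SAPK2, a kinase that hyperosmotic stress activates in rice. In LN leaves it was at 14.9, 27.5 and 10.3 FPKM at T3 against 5.05, 11.1 and 6.10 FPKM at T1, and the difference of 1.10 did not pass (adjusted p = 0.076). It was higher at T3 in HN leaves, at 11.0, 14.3 and 12.6 FPKM against 2.70, 3.53 and 1.60 FPKM at T1 (1.94 ± 0.45, adjusted p = 0.0025).

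SRK2E (Arabidopsis name, Spo26739), the kinase OPEN STOMATA of Arabidopsis guard cells, ran between 14.6 and 36.99 FPKM in LN leaves, where the time test did not pass (adjusted p = 0.12). In HN leaves it was higher in the middle of the light period, at 30.4, 33.2 and 39.9 FPKM at T2 against 21.0, 16.9 and 17.7 FPKM at T4 (0.86 ± 0.21, adjusted p = 0.0068). That call and the T3 minus T1 call in HN (-0.66 ± 0.21, adjusted p = 0.023) were lost with a common sum of FPKM, and the T3 call also without HN replicate 1 or 3 at T1 or HN replicate 1 or 2 at T3. SRK2H (Arabidopsis name, Spo14589), the most abundant kinase, ran between 56.6 and 118 FPKM in LN and 69.3 and 122 FPKM in HN, and its time tests did not pass (adjusted p = 0.23 in LN and 0.42 in HN). SRK2A (Arabidopsis name, Spo22146) ran between 16.4 and 31.7 FPKM in LN and 14.9 and 31.9 FPKM in HN (adjusted p = 0.24 in LN and 0.087 in HN). SAPK3 (rice name, Spo09727) ran between 0.038 and 12.8 FPKM in LN and 2.70 and 7.41 FPKM in HN (adjusted p = 0.49 in LN and 0.75 in HN).

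**Figure D5:**
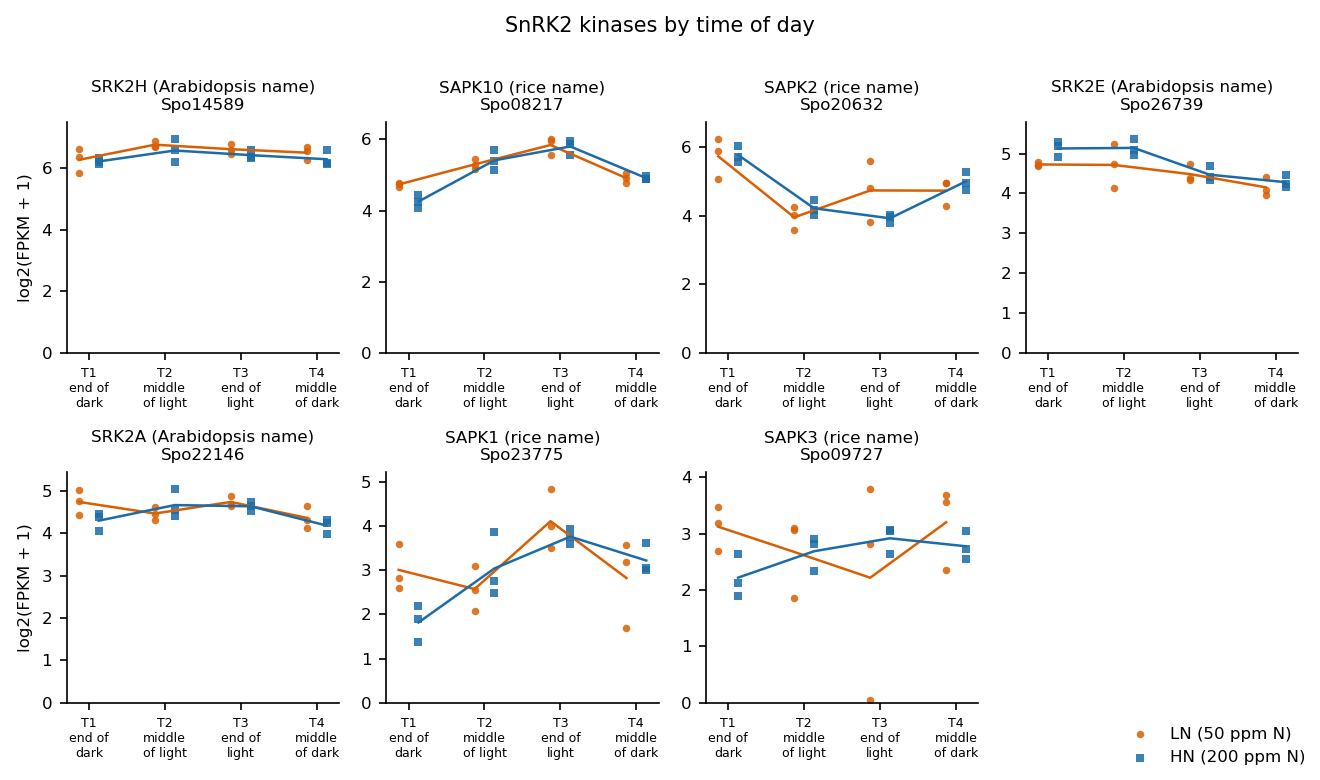
Level of the 7 SnRK2 kinases as log2(FPKM + 1) at the 4 sampling times, LN as orange circles left of HN as blue squares, 1 point a library (3 a group) with lines through the group means. SAPK10 is highest at T3, SAPK2 is highest at T1, and SRK2H and SRK2A lie within a narrow band at all times.

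The ABI factors are the transcription factors at the end of the chain, and 3 of 3 changed over the day in each supply (28.7% of all tested genes in LN and 38.9% in HN), the HN call of AI5L2 Spo11283 being lost in 12 of 24 fits that left out a library. AI5L5 (Arabidopsis name, Spo07813, chromosome 1, 45904655 to 45909004) is the ABF2 factor of Arabidopsis, which binds promoters of hormone-responsive genes. At T1 it stood at 87.8, 265 and 270 FPKM in LN leaves, against 38.5, 45.5 and 36.1 FPKM in HN leaves. Every LN plant was above every HN plant, and replicate 1 was again the lowest LN plant. The difference was 2.18 ± 0.33 (adjusted p = 0.00075) and held in all 24 fits that left out 1 library. It was 2.72 without LN replicate 1, and the call was lost when the 6 T1 libraries alone were fitted (adjusted p = 0.053). Averaged over the day it was 0.76 ± 0.16 (adjusted p = 0.0055). At T3 the gene was at 16.5, 16.9 and 15.8 FPKM in LN leaves and 13.3, 13.7 and 11.6 FPKM in HN leaves. The T3 minus T1 difference was -3.42 ± 0.33 in LN (adjusted p = 4.1e-07) and -1.56 ± 0.33 in HN (adjusted p = 0.0012). The interaction test gave an adjusted p of 0.11, and 0.0022 without LN replicate 1 at T1.

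A pair of genes was named after AI5L2 of Arabidopsis, the bZIP factor AREB3, and they moved in opposite directions. Spo16791 was at 4.41, 8.94 and 6.71 FPKM at T3 against 10.7, 14.2 and 12.4 FPKM at T1 in LN leaves (-0.84 ± 0.24, adjusted p = 0.013), a call lost without LN replicate 2 at T1 or LN replicate 1 at T3. The HN values were 4.70, 8.35 and 7.98 FPKM at T3 against 13.7, 17.7 and 10.1 FPKM at T1 (-0.89 ± 0.24, adjusted p = 0.0073), a call lost without HN replicate 2 at T1 or HN replicate 1 at T3. It was lower at T2 than at T4 in HN leaves (-1.36 ± 0.24, adjusted p = 0.00057). Spo11283 was at 5.16, 5.99 and 3.51 FPKM at T3 against 3.00, 1.81 and 3.13 FPKM at T1 in LN leaves (0.69 ± 0.20, adjusted p = 0.018), a call lost with a common sum of FPKM and without LN replicate 2 at T1 or LN replicate 1 or 2 at T3. HN leaves had 4.02, 4.33 and 4.91 FPKM at T3 against 1.48, 2.97 and 2.59 FPKM at T1 (0.72 ± 0.20, adjusted p = 0.011), a call lost without HN replicate 1 at T1. Neither passed for nitrogen at T1 (adjusted p = 0.8 for Spo16791 and 0.73 for Spo11283). ABI5 itself (Spo18529) reached 1 FPKM in 2 libraries and was not tested.

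Of the 46 PP2Cs outside clade A, 20 changed over the day in LN leaves (28.7% of all tested genes did) and 27 in HN leaves (38.9%). Between T3 and T1, 4 were higher (12.2% of all tested genes) and 10 lower (13.8%) in LN, and 8 were higher (15.7%) and 15 lower (17.1%) in HN. P2C40 (Arabidopsis name, Spo11878) had its peak in the light. In LN leaves it was at 39.5, 44.0 and 45.4 FPKM at T2 against 21.1, 21.4 and 25.1 FPKM at T4 (0.90 ± 0.14, adjusted p = 0.00044). The HN plants were at 46.6, 55.8 and 44.2 FPKM at T2 against 20.5, 20.6 and 16.8 FPKM at T4 (1.29 ± 0.14, adjusted p = 4.7e-06). The gene named after rice P2C27 (Spo08588) had the same phase and a wider range, with 11.6, 11.1 and 9.59 FPKM at T2 against 0.674, 1.15 and 1.06 FPKM at T4 in LN leaves (2.59 ± 0.30, adjusted p = 1.7e-05). Its HN libraries were at 13.1, 12.97 and 7.50 FPKM at T2 against 1.14, 0.816 and 0.758 FPKM at T4 (2.65 ± 0.30, adjusted p = 8.2e-06).

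P2C34 (Arabidopsis name, Spo14860) was highest at the end of the dark period. It stood at 3.88, 4.21 and 0.753 FPKM at T3 against 7.86, 18.7 and 14.3 FPKM at T1 in LN leaves (-1.97 ± 0.39, adjusted p = 0.00098). In HN leaves it stood at 3.05, 1.36 and 1.22 FPKM at T3 against 21.7, 22.9 and 31.1 FPKM at T1 (-3.23 ± 0.39, adjusted p = 5.1e-06). The groups did not overlap in either supply. For P2C76 (Arabidopsis name, Spo16051) the T3 minus T1 difference of 0.37 in LN leaves missed the threshold (adjusted p = 0.058). The HN values were 86.4, 80.0 and 78.2 FPKM at T3 against 58.7, 53.2 and 49.7 FPKM at T1 (0.59 ± 0.14, adjusted p = 0.0034). Its T2 minus T4 call in HN (0.65, adjusted p = 0.0028) was lost with a common sum of FPKM. The gene named after rice P2C02 (Spo17660) did not pass the time test in LN leaves (adjusted p = 0.071). HN leaves had 30.2, 33.6 and 23.0 FPKM at T2 against 11.2, 11.2 and 7.42 FPKM at T4 (1.46 ± 0.22, adjusted p = 0.00018).

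P2C10, P2C25, P2C70 and P2C27, all Arabidopsis names, are PP2Cs outside clade A with their highest LN mean at T1. P2C10 (Spo23852) stood at 80.6, 228 and 191 FPKM at T1 in LN against 51.6, 96.3 and 64.7 FPKM in HN, with overlap. The difference of 1.14 ± 0.30 (adjusted p = 0.023) was lost with the block among T1 libraries and without LN replicate 2 or 3 or HN replicate 1 or 3 at T1. That call was also lost when the T1 libraries alone were fitted. Its T3 minus T1 difference was -2.79 ± 0.30 in LN (adjusted p = 1.9e-06) and -1.87 ± 0.30 in HN (adjusted p = 0.00013). P2C25 (Spo08769), which in Arabidopsis acts on mitogen-activated protein kinases, stood at 43.2, 40.5 and 64.9 FPKM at T1 in LN against 16.9, 29.6 and 17.2 FPKM in HN. There was no overlap, and the difference was 1.2 ± 0.34 (adjusted p = 0.029). It was lost with that block, when the T1 libraries alone were fitted, and without LN replicate 3, HN replicate 1 or HN replicate 3 at T1. Its T3 minus T1 difference was -2.59 ± 0.34 in LN (adjusted p = 1.5e-05) and -1.61 ± 0.34 in HN (adjusted p = 0.0011).

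P2C70 (Spo03590), the kinase-associated phosphatase KAPP of Arabidopsis receptor kinases, stood at 10.5, 25.2 and 19.1 FPKM at T1 in LN leaves against 6.40, 6.71 and 4.93 FPKM in HN leaves. The groups did not overlap, and the difference of 1.39 ± 0.25 (adjusted p = 0.0028) held in all 24 fits that left out 1 library. That call was lost with the block among the T1 libraries and when the T1 libraries alone were fitted. In LN leaves P2C70 changed over the day (adjusted p = 1.6e-05), and in HN leaves the time test did not pass (adjusted p = 0.48). Its interaction test gave an adjusted p of 0.102, and 0.0104 without LN replicate 1 at T1. P2C27 (Spo26486) was at 16.2, 30.5 and 28.1 FPKM at T1 in LN and 14.5, 17.9 and 18.6 FPKM in HN, and this difference of 0.49 did not pass (adjusted p = 0.094). Its T3 minus T1 difference was -0.96 ± 0.18 in LN (adjusted p = 0.00072) and -0.56 ± 0.18 in HN (adjusted p = 0.022), the HN call being lost with a common sum of FPKM and without HN replicate 2 or 3 at T1 or HN replicate 2 at T3. P2C02 of Arabidopsis (Spo04196), named here after its values were seen, had the lowest adjusted p of any member in the interaction test, 0.0563. It stood at 9.77, 11.6 and 13.02 FPKM at T1 in LN leaves against 1.996, 4.57 and 3.00 FPKM in HN leaves (1.61 ± 0.25, adjusted p = 0.00088). At T3 it was lower than at T1 in LN (-1.19 ± 0.25, adjusted p = 0.0014) and higher than at T1 in HN (0.81 ± 0.25, adjusted p = 0.016), and the HN call was lost without HN replicate 1 at T1 or at T3.

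Lower levels in LN leaves also occurred among the other PP2Cs. The gene named after rice P2C01 (Spo03019) ran between 3.73 and 31.7 FPKM with a median of 9.96 FPKM over the 12 LN libraries, and between 18.4 and 67.0 FPKM with a median of 24.8 FPKM over the 12 HN libraries. The LN minus HN difference over the day was -1.05 ± 0.17 (adjusted p = 0.0012). At T4 it was the called member, at 7.26, 9.99 and 3.73 FPKM in LN against 19.6, 25.1 and 25.2 FPKM in HN (-1.68 ± 0.33, adjusted p = 0.033), and that call was lost without the 3 farthest libraries, without LN replicate 3, HN replicate 2 or HN replicate 3 at T4, or without HN replicate 1 at T1. P2C57 (Arabidopsis name, Spo02513, chromosome 3, 6103274 to 6108516), the thylakoid phosphatase TAP38 that acts on light-harvesting proteins in Arabidopsis, stood at 56.9, 78.5 and 58.1 FPKM at T1 in LN leaves. In HN leaves it stood at 122, 150 and 127 FPKM. No plants overlapped, and the difference was -1.04 ± 0.22 at T1 (adjusted p = 0.0078) and -0.47 ± 0.11 over the day (adjusted p = 0.0089).

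P2C55 (Arabidopsis name, Spo13031) did not pass the time test (adjusted p = 0.62 in LN and 0.83 in HN), and its LN mean was below its HN mean at each time. Its 12 LN libraries ran between 50.8 and 74.2 FPKM with a median of 62.6 FPKM, and its 12 HN libraries between 72.5 and 90.0 FPKM with a median of 82.3 FPKM, a mean difference of -0.35 ± 0.07 (adjusted p = 0.0036). As with P2C01, P2C57, P2C35 and the receptor PYL8, mesophyll markers were also lower in LN over the day. Of these 5 of 24 were called (20.8%, against 16.5% of all tested genes), and their part was not tested. P2C35 (Arabidopsis name, Spo11741) was at 10.9, 13.3 and 11.3 FPKM at T1 in LN against 19.9, 23.3 and 17.1 FPKM in HN (-0.71 ± 0.15, adjusted p = 0.0083). That call was lost with the block among T1 libraries and when the T1 libraries alone were fitted. Over the day the P2C35 difference was -0.34 ± 0.08 (adjusted p = 0.0076). At T1 the groups of 30 of 69 members did not overlap (43.5%, against 27.4% of all tested genes), 17 with LN above HN and 13 with LN below. The shares were 18.8% at T2 (15.8% of all tested genes), 18.8% at T3 (11.8%) and 30.4% at T4 (25.1%).

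The members lie apart in the genome, with 44 on the 6 chromosomes of the Sp75 assembly and 25 on scaffolds. A cluster of 4 PP2Cs on chromosome 1 held 3 genes named P2C72 and 1 named P2C52 (Arabidopsis names). Within it Spo14385 stood at 0.483, 18.3 and 2.95 FPKM at T1 in LN leaves against 19.1, 25.9 and 19.7 FPKM in HN leaves, a difference of -2.21 ± 0.76 that did not pass (adjusted p = 0.068). Its neighbours Spo14384 and Spo14387 stayed between 0.855 and 4.998 FPKM in every library. A pair of genes named P2C19 (Spo10429 and Spo10430), 1702 bases apart on chromosome 2, were both higher at T3 than at T1, by 0.67 and 0.82 in LN leaves and 0.92 and 0.96 in HN leaves. Reads of near copies such as these could have been split between them, and the Spo10429 call in LN was lost with a common sum of FPKM and without LN replicate 2 at T1 or LN replicate 1 at T3.

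Other genes of the hormone pathway were read from lists matched by protein name, and the examples were picked with their values in view. Of 10 tested genes for hormone synthesis 4 differed with nitrogen over the day (16.5% of all tested genes did), 3 higher in LN and 1 lower, and their median difference was 0.13 against 0.0035 for all tested genes. NCED1 (Spo19923), named after the dioxygenase that is rate-limiting for synthesis, had 35.3, 149 and 86.7 FPKM at T1 in LN leaves against 25.4, 27.8 and 19.0 FPKM in HN leaves. No plants overlapped, and over the day the gene was 1.06 ± 0.29 higher in LN (adjusted p = 0.018). Its T1 difference of 1.66 missed the threshold (adjusted p = 0.073). It was lower at T3 than at T1 in both supplies, with differences of -3.45 ± 0.58 in LN (adjusted p = 0.00022) and -2.56 ± 0.58 in HN (adjusted p = 0.0021). A further NCED1 (Spo18701) was 0.87 ± 0.18 higher in LN over the day (adjusted p = 0.0048). ABA4 (Spo00169), which acts before the dioxygenase, was lower in LN over the day (-0.41 ± 0.10, adjusted p = 0.0076).

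Of 6 tested genes for hormone breakdown, 2 passed over the day (16.5% of all tested genes did), both higher, and both were 8'-hydroxylases, the enzymes that start breakdown. ABAH4 (Spo22545) had 25.5, 16.7 and 18.5 FPKM at T1 in LN leaves against 5.07, 3.27 and 10.3 FPKM in HN leaves (1.65 ± 0.37, adjusted p = 0.011). ABAH2 (Spo12164) had 5.40, 19.1 and 23.5 FPKM at T1 in LN leaves against 1.24, 3.40 and 2.61 FPKM in HN leaves (2.16 ± 0.53, adjusted p = 0.015). The ABAH4 call at T1 was lost with the block among T1 libraries and without HN replicate 2 at T1, and the ABAH2 call without LN replicate 3 or HN replicate 1 at T1. The ABAH2 difference over the day (0.84, adjusted p = 0.036) was lost in 12 of 24 fits that left out a library. Of 4 tested transport genes 1 passed over the day (16.5% of all tested genes did), the transporter NPF4.6 (Spo25782), at -0.32 ± 0.11 (adjusted p = 0.043), a call lost in 16 of 24 fits that left out a library.

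Of 12 further response factors 3 passed over the day (16.5% of all tested genes did), all higher in LN. Leaving out 1 library lost the call of AFP2 in 6 of 24 fits, that of AFP3 (Spo08728) in 11 and that of ATB12 in 19. AFP2 (Spo06852), a binding partner of ABI5 in Arabidopsis, had 18.0, 55.5 and 39.7 FPKM at T1 in LN leaves against 7.55, 8.66 and 5.01 FPKM in HN leaves (2.15 ± 0.38, adjusted p = 0.0023). ATB12 (Spo01230), the homeodomain factor ATHB-12 that the hormone induces in Arabidopsis, had 123, 313 and 300.4 FPKM at T1 in LN leaves and 68.2, 61.5 and 62.5 FPKM in HN leaves, and was 1.11 ± 0.38 higher over the day (adjusted p = 0.048). In these genes, as in P2C78, P2C51 and AI5L5, LN replicate 1 was the lowest LN plant at T1.

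Of 20 genes in hormone-responsive protein classes 7 differed at T1 (9.97% of all tested genes did), 6 higher in LN and 1 lower, and over the day 4 were higher and 2 lower (16.5% of all tested genes were called). Leaving out 1 library lost the call over the day of LEA34 Spo02239 in 19 of 24 fits, of LEA14 in 16, of HA22F in 9 and of LTI65 Spo12971 in 4, and held those of LEA47 and HA22I in all 24. LEA47 (Spo02238), a late embryogenesis abundant protein, had 6.09, 3.39 and 11.7 FPKM at T1 in LN leaves against 0.185, 0.103 and 0.444 FPKM in HN leaves (2.57 ± 0.39, adjusted p = 0.00088). Every HN library at T1 was below the 1 FPKM of the filter and every LN library above it. The LN libraries at T1 were thus enough by themselves to bring LEA47 into the tested set. LTI65 (Spo12970), the Arabidopsis gene also called RD29B, had 20.8, 105 and 36.0 FPKM at T1 in LN leaves against 5.90, 6.09 and 4.603 FPKM in HN leaves (2.76 ± 0.60, adjusted p = 0.0084). At T2 it had 14.9, 30.1 and 16.3 FPKM in LN against 182, 44.7 and 53.7 FPKM in HN, every HN plant being higher, and its interaction test gave an adjusted p of 0.077. HA22I (Spo12651), of the HVA22 class, was lower in LN at T1, at 27.6, 43.2 and 22.9 FPKM against 79.9, 76.1 and 58.4 FPKM in HN (-1.204 ± 0.21, adjusted p = 0.0024). Of 12 guard cell output genes 2 differed over the day (16.7%, against 16.5% of all tested genes), both higher in LN. RBOHB (Spo06343), an oxidase that makes reactive oxygen, was at 0.46 ± 0.13 (adjusted p = 0.02), and the call of the anion channel SLAH3 (Spo15968) was lost in voom and in 18 of 24 fits that left out 1 library.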

How the data were processed

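Poly-A RNA from leaves was made into dUTP strand-marked libraries, per the labels. The submitters' processing notes name HISAT2, RSEM and DESeq2 1.20.0 without roles. The series title names the Sp75 spinach reference, and coordinates are those of the deposited table, which holds FPKM per gene. Each deposited FPKM value times gene length gave a whole number of fragments (100% of values, tolerance 0.01), and the implied library scale matched median-of-ratios size factors within 0.008%. Genes at 1 FPKM or more in at least 3 libraries were fitted as log2(FPKM + 1) in limma 3.58.1 (R 4.3.3), with 8 group means, 16 residual degrees of freedom, a trend in the moderated variance and Benjamini-Hochberg adjustment over 18110 genes. Voom on the recovered fragments was an alternative. The fit was tested on simulated data.

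All tested receptors, clade A PP2Cs, kinases and ABI factors are named. Of the other PP2Cs with a mean of at least 5 FPKM, the 6 with the smallest adjusted p over time in each supply and the 4 with the smallest for nitrogen over the day are named. Members and lists were chosen with earlier results of these data known. Alternatives were another pseudocount, other filters, a common sum of FPKM, robust moderation, voom, a replicate block, only the groups compared, and leaving out each library. Same-numbered samples deviated together (every correlation over 0.1) in 1 of 16 pairs of groups, LN and HN at T1. No sequence is shown, since 0 reference identifiers matched the table.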

Additional observations from a re-analysis of the deposited data

How the results depend on the processing

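For 36 named members 10674 log2 differences were compared under alternatives, which leaves out the tests over time and the interaction test. Of these values 0 reversed their sign while called, 10415 stayed on the same side of the threshold (called or not), 174 lost a call and 85 gained one. Calls over time of named members were lost in up to 18 of 24 fits that left out a library (P2C27 Spo26486 in HN). The splits of higher and lower calls moved: T2 against T4 in HN had 14 higher and 8 lower, and 5 higher and 20 lower with a common sum of FPKM. With only the groups compared, the fit has fewer degrees of freedom and uses the spread of those groups alone. The counts of members called were then 4 for nitrogen at T1 (15 in the fit of all groups), 0 at T4 (1), 14 for T3 against T1 in LN (28), 14 for T2 against T4 in HN (22) and 4 in LN (10). At T1 the LN libraries lay 0.54 to 0.70 (root mean square, log2) from the mean of their group's other libraries, and the HN libraries 0.37 to 0.47. The part of each in the lost calls was not tested. Leaving out 1 library gave 0 to 4 for the interaction, 6 to 16 for T1, 0 to 1 for T4, 13 to 25 for T2 against T4 in HN and 5 to 13 in LN. It gave 31 to 37 for time in LN, 36 to 44 in HN, 11 to 19 for nitrogen over the day, 20 to 29 for T3 against T1 in LN and 27 to 38 in HN. Without the 3 farthest libraries, an alternative chosen after seeing the data, the interaction called 3, T3 called 1 and T4 called 0. T1 then called 18, of which 8 were higher and 10 lower in LN (10 and 5 with all libraries), and 11 were shared with the 15. Among named members, the T3 minus T1 calls in LN then lost were those of PYL1, P2C16, P2C51 Spo16056, SAPK2 and AI5L2 Spo16791. Nitrogen calls were lost at T1 for PYL5 Spo18840, P2C37 and P2C10, and at T4 for P2C01 Spo03019. Calls over time in LN were lost for AI5L2 Spo16791 and P2C76. The cause of these shifts was not tested.

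With the replicate number as a block over all groups T1 called 14. Within T1, where same-numbered samples correlated at 0.145, 0.414 and 0.136, the block called 7. That block was also chosen after seeing the data. Numbers in the other 15 pairs of groups are only labels (mean correlation over all 16 pairs 0.015, range -0.447 to 0.465). With 3 plants a group, differences smaller than the spread between plants were not detectable.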
